A study of Homo sapiens with 6 samples.

Results

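MiaPaCa2 is an established human line of pancreatic ductal adenocarcinoma cells. The 3 wild-type (WT) clones described here were chosen by their titles, and they are 3 of the 6 libraries of the series. The other libraries come from clones in which ZEB1 was deleted, and no value of theirs was compared. Each WT clone grew from sorted GFP+ cells that had been electroporated with the plasmid pSpCas9-2A-GFP (px458), which carries Cas9 and GFP. The plasmid given to the deleted clones also carried a guide RNA against ZEB1. All clones were grown in DMEM with 10% fetal bovine serum, glutamine and antibiotics. RNA of 2000 lysed cells per clone was converted to cDNA with SMART-Seq2, in which poly(A) RNA is copied from an oligo(dT) primer and amplified before tagmentation. Each clone gave 1 library, and nothing in the labels gives culture days or library batches. A difference between clones and a difference between preparations therefore cannot be told apart, and no test was made between clones.

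Carcinoma cells can take an epithelial form, held together by E-cadherin junctions, or a mesenchymal form with vimentin filaments, matrix genes and loose contacts. ZEB1 is a zinc-finger repressor that binds E-box sequences in the promoters of epithelial genes such as CDH1, and it is one of the transcription factors that drive the epithelial-to-mesenchymal transition (EMT). MiaPaCa2 is known as a poorly differentiated line with a homozygous deletion of CDKN2A.

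The WT libraries held 42876693, 36290148 and 26242238 counts in clones 1, 2 and 3. Levels are given as the deposited TPM (transcript abundance per length of the gene, with the same total in each library), which is the scale used between genes, or as CPM (counts per 1e6 of the TMM-scaled library size), the scale used between clones. A gene was called detected at 1 CPM or more in each of the 3 libraries, and at the floor with at most 3 counts in each. Of 26334 gene symbols, 10548 (40.1%) were detected, 10389 (39.5%) were at the floor, and 5397 lay between. Among those at the floor, 7503 had no count in any WT library. A count of 0 allows up to 3 counts, which corresponds to 0.0651, 0.0888 and 0.114 CPM in clones 1, 2 and 3. These limits cover counting error only, since amplified reads carry no molecular identifiers. The shares of all symbols, 40.1% detected and 39.5% at the floor, are those to hold against each gene list below.

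The most abundant transcript was TMSB4X, which encodes thymosin beta-4, a small protein that binds actin monomers. Its level was 58141, 98693 and 75813 TPM in clones 1, 2 and 3, a mean of 77549 ± 20331 TPM (SD, n = 3), and it alone took 7.75% of the mean TPM. FTL, the ferritin light chain that stores iron, followed at 21672 ± 2244 TPM. S100A4, a calcium-binding protein linked to motile cells, came next, at 7690, 24993 and 13214 TPM, and ANXA1, a membrane-binding annexin, followed it, at 5899, 15627 and 7075 TPM. TMSB4X, S100A4 and ANXA1 were each highest in clone 2 and lowest in clone 1, whereas FTL kept within 19720 to 24123 TPM. TMSB10, the other abundant thymosin, had the opposite order, with 10656, 5966 and 8775 TPM. MT2A, a metal-binding metallothionein, was highest in clone 3, at 4893, 6559 and 11895 TPM. TMSB4X, FTL, GAPDH and many ribosomal protein genes have near-identical processed copies elsewhere in the genome, so that their counts are uncertain to the extent that the counting split them.

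**Figure D1:**
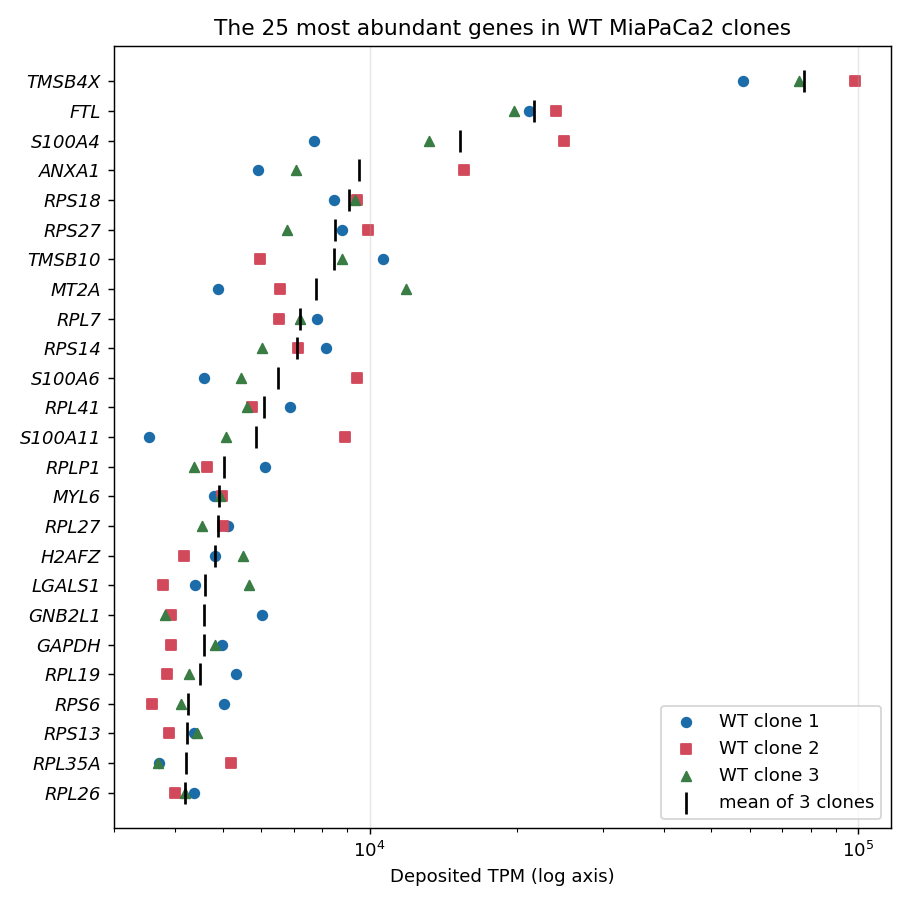
Deposited TPM on a log axis for the 25 genes of highest mean TPM, with 1 point per WT clone and a bar at the mean of 3 clones. TMSB4X stands apart from all others at 58141 to 98693 TPM, and TMSB4X, S100A4, ANXA1, S100A6 and S100A11 have their highest point in clone 2 and their lowest in clone 1.

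The transcriptome was concentrated in few genes. The leading 10 genes held 17.2% of the mean TPM, the leading 50 held 33.3% and the leading 1000 held 83.8%. Of the leading 50, 26 encode cytosolic ribosomal proteins, and 44 of the leading 100 do. RPS18 and RPL7, of the small and the large subunit, reached 9078 ± 527 and 7188 ± 642 TPM (SD, n = 3). Together the ribosomal protein genes took 21.8%, 18.6% and 17.9% of the TPM in clones 1, 2 and 3. Of 86 such genes 81 were detected, and RPL21 and RPL10L were among those at the floor. RPL21 has near-identical copies, so its low count is uncertain. Other genes among the leading 25 were S100A6 (6494 ± 2579 TPM) and S100A11 (5846 ± 2765 TPM), further calcium-binding S100 proteins. MYL6, a non-muscle myosin light chain, was at 4912 ± 106 TPM, and LGALS1, a galactose-binding lectin, at 4605 ± 960 TPM.

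All 4 genes given as markers of the WT clones, VIM, ZEB1, COL1A2 and TMSB4X, were detected in each clone. VIM, the mesenchymal intermediate filament protein vimentin, stood at 2742, 2300 and 1995 TPM, rank 74 of the TPM table. ZEB1 itself was a low-abundance transcript, at 8.25, 6.33 and 7.37 TPM, and on the CPM scale the clones spanned 29.9 to 32.3. COL1A2, a chain of type I collagen, was at 37.0, 104 and 63.6 TPM, highest in clone 2 and lowest in clone 1. All 3 libraries thus carried ZEB1 and vimentin transcripts.

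Of 37 mesenchymal and matrix genes, 26 were detected and 4 were at the floor, against 40.1% detected over all symbols. CD44, the hyaluronan receptor, was at 243 ± 27.2 TPM, ITGB1, the common beta chain of integrins, at 259 ± 51.9 TPM, and AXL, a receptor kinase, at 45.9 ± 28.8 TPM (SD, n = 3). All 25 genes of the actin cytoskeleton list were detected, and 9 of 25 integrin chains were. Several textbook mesenchymal genes were near 0. CDH2, which encodes N-cadherin, had 1, 0 and 0 counts, and the metalloproteases MMP2 and MMP14 were also at the floor. FN1, fibronectin, had 0.193, 0.338 and 0.158 TPM and was not counted as detected, being under 1 CPM in clone 3. Of 29 collagen genes 7 were detected and 12 were at the floor. COL1A1, the partner chain of COL1A2 in type I collagen, had 1, 0 and 0 counts, against 5644, 14119 and 6066 counts of COL1A2.

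Among 17 EMT transcription factors, 7 were detected and 7 were at the floor, both shares being close to those of all symbols (40.1% and 39.5%). The detected factors included ZEB1, TCF12, TCF3, SOX4, SNAI2 and FOXC1. ZEB2, the paralogue of ZEB1, had 2, 1 and 3 counts. TWIST1 and PRRX1 had no count in any WT library, and TWIST2 had 0, 0 and 1. SNAI1 was between the 2 limits, with 17, 16 and 6 counts. SNAI2, the Slug repressor, differed between the clones, at 20.3, 3.55 and 3.87 TPM, and was highest in clone 1.

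Of 30 genes of epithelial junctions, 12 were detected and 6 were at the floor, against 40.1% and 39.5% of all symbols. The share detected was thus that of genes at large, and the share at the floor was lower. Those at the floor included CDH1, which encodes E-cadherin and had 2, 1 and 2 counts, and EPCAM, an epithelial adhesion molecule with no count in any WT library. CDH3, CLDN3, CLDN7 and PKP1 were the others. Junction genes were not uniformly low. CTNNB1, the beta-catenin that also acts in Wnt signalling, was at 63.3 ± 7.46 TPM, and OCLN, the tight-junction protein occludin, was at 10.8, 4.86 and 5.23 TPM. CLDN1 (6.18 ± 2.44 TPM), CLDN4 (5.82 ± 2.00 TPM) and TJP1 (5.84 ± 1.03 TPM), all of tight junctions, were detected in each clone.

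Among 14 regulators of the epithelial state, EHF, TP63 and KLF4 were detected. GRHL2 and OVOL1, transcription factors of epithelial cells, had no count in any WT library. ESRP1, an epithelial splicing regulator, had 3, 5 and 0 counts, and ESRP2 had 0, 5 and 0. EHF, an ETS factor of epithelia, was at 12, 45.4 and 20.8 TPM, and ELF3, a related factor, was at 1.58, 5.56 and 0.384 TPM. Both were highest in clone 2.

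Simple-epithelial keratins were nonetheless among the abundant transcripts. KRT18 was at 1379, 1596 and 1985 TPM, KRT8, its filament partner, at 492, 489 and 541 TPM, and KRT19, a duct keratin, at 69.1, 209 and 131 TPM. In clone 3 KRT18 and VIM were at like levels, 1985 and 1995 TPM, while in clone 1 KRT18 was at 1379 against 2742 TPM of VIM. Of 21 keratin genes 6 were detected and 10 were at the floor, the latter including KRT5, KRT14 and KRT17 of stratified epithelia.

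Genes of the differentiated pancreas were mostly near 0. Of 31 pancreatic transcription factors 5 were detected (SOX9, ONECUT2, HHEX, GATA4 and PAX6), and 17 were at the floor. PDX1, the master factor of the pancreas, had 0, 3 and 0 counts, GATA6 had 1, 0 and 3, and PTF1A and FOXA2 had none. SOX9, a factor of duct and progenitor cells, was present at 13.7, 34.8 and 35.4 TPM. Of 23 acinar markers, which encode digestive enzymes, 21 were at the floor and only AMY2B was detected. The acinar list summed to 2.11, 2.13 and 1.64 CPM in clones 1, 2 and 3. INS, GCG and CHGA, of islet and neuroendocrine cells, had no count, and 17 of 30 such markers were at the floor. STMN1, SCG2 and ENO2 were detected, and the list summed to 1925, 2502 and 2524 CPM in clones 1, 2 and 3. STMN1 was its highest member, at a mean of 887 TPM. SCG2 and SYT1 of this list differed between the clones and are given below. Of 16 ductal markers KRT19, ANXA4, SOX9 and MUC1 were detected, and 9 were at the floor, CFTR without a count.

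Most of the listed markers of other cell types that a culture could hold were at or near 0. In bulk RNA, fewer cells that carry a transcript and less of it per cell cannot be told apart. Of 19 blood and immune markers 11 were at the floor, and the whole list summed to 6.14 to 16.7 CPM. PTPRC, CD3E and MS4A1 were among those at the floor, whereas LYZ and CD68 were detected. The 10 endothelial markers summed to 4.65 to 10.6 CPM, with VWF and KDR at the floor and EGFL7 alone detected. EMCN, an endothelial gene that is not on that list, was at 40.9, 0.148 and 65.5 CPM in clones 1, 2 and 3. Of 15 fibroblast and stellate markers 11 were at the floor, including DCN, LUM and FAP without a count and PDGFRB with 2, 1 and 0 counts. The sum of that list was nonetheless 819, 11575 and 940 CPM, of which RGS5, a regulator of G-protein signalling often used as a pericyte marker, made up 815, 11555 and 924 CPM. RGS5 was thus more than 10 times higher in clone 2 than in both others. Of the remaining markers of that list, FBLN1 was at 2.84, 2.07 and 5.14 CPM and COL3A1, a fibrillar collagen, at 0.499, 17.7 and 10.7 CPM, so that COL3A1 was also highest in clone 2.

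**Figure D2:**
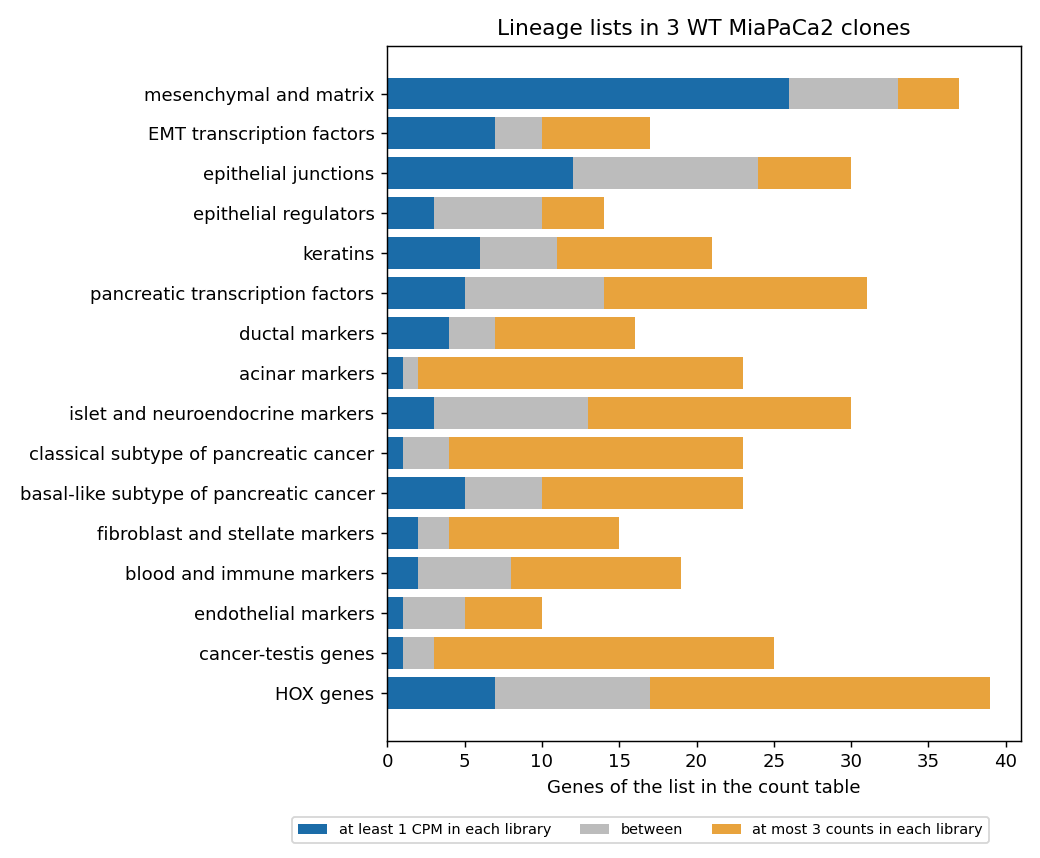
Number of genes of each lineage list that were detected (at least 1 CPM in each of 3 WT libraries), at the floor (at most 3 counts in each) or between. Most of the mesenchymal and matrix list is detected (26 of 37), and most of the acinar list (21 of 23) and of the classical subtype list (19 of 23) is at the floor.

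Lists that define subtypes of pancreatic cancer were sparsely expressed. Of 23 genes of the classical subtype, which has glandular features, 19 were at the floor and LYZ alone was detected. Of 23 genes of the basal-like subtype 5 were detected (UCA1, SLC2A1, S100A2, KRT15 and AREG) and 13 were at the floor. UCA1, a long noncoding RNA, was abundant, at 155, 975 and 1069 TPM, and was lowest in clone 1. Of 25 cancer-testis genes, normally limited to germ cells, only PRAME was detected, at 12.3, 5.15 and 7.09 TPM. Of 39 HOX genes 7 were detected, namely HOXA3 and, of the HOXB cluster, HOXB2, HOXB3, HOXB5, HOXB6, HOXB7 and HOXB13.

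Of 30 genes often mutated in pancreatic cancer 23 were detected. SMAD4, the common mediator of TGF-beta signals, was at 7.59, 6.28 and 7.49 TPM. CDKN2A and CDKN2B, inhibitors of the G1 cyclin kinases, had no count in any WT library. TGFBR2, the type II TGF-beta receptor, had 2, 3 and 0 counts. ARID1B, RNF43 and KDM6A were the other genes of that list at the floor.

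The genes around CDKN2A on the short arm of chromosome 9 were then read in their order on the chromosome. MLLT3, FOCAD, IFNB1, KLHL9 and IFNE, on the side of the interferon cluster, had at most 15 counts in any clone. MTAP, the methylthioadenosine phosphorylase next to CDKN2A, had 61, 40 and 27 counts, or 1.32, 1.18 and 1.03 CPM, and CDKN2B-AS1 had 103, 100 and 46. DMRTA1 had none and ELAVL2 had 1, 0 and 0. The next gene, CAAP1, had 936, 697 and 636 counts, and PLAA and IFT74 beyond it had 860 to 1995. TEK and MOB3B, further on, were again at the floor. Of these 16 genes 10 were at the floor in all clones, against 39.5% of all symbols. No DNA copy number was used, and the cause of these low counts was not tested. The libraries keep no strand, so that reads of CDKN2B-AS1, MTAP and genes that overlap them cannot be told apart.

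The RAS and MAPK pathway was present almost whole, with 34 of 37 genes detected (91.9%), against 40.1% of all symbols. Only the scaffold KSR1 of that list was at the floor. Among the kinases, MAP2K2 was at 26.7 ± 7.81 TPM and MAP2K1 at 15.1 ± 1.21 TPM, while BRAF reached only 3.29 ± 0.713 TPM (SD, n = 3). The feedback inhibitor SPRY2 was the highest member, at 105, 91.2 and 120 TPM. DUSP6, a phosphatase that turns off MAP kinases, differed between clones, at 1.09, 5.84 and 5.59 TPM, and was lowest in clone 1. In the PI3K and mTOR pathway 19 of 20 genes were detected.

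Of 30 receptor tyrosine kinases 15 were detected and 8 were at the floor, among them KIT, PDGFRA and ERBB4. AXL was the highest, at 47.1, 16.5 and 74.2 TPM, followed by EPHA2, an ephrin receptor, at 17.8 ± 1.15 TPM. EGFR (2.36 ± 0.415 TPM), ERBB2 (3.00 ± 1.05 TPM) and MET (2.66 ± 0.813 TPM) were low. ROR1 and DDR2 were clone-dependent. ROR1, a receptor for Wnt ligands, was at 5.86, 66.1 and 0.991 CPM, and DDR2, a collagen receptor, at 2.19, 19.9 and 51.1 CPM.

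In the TGF-beta and BMP pathway 21 of 33 genes were detected (63.6%, against 40.1% of all symbols). The type I receptor TGFBR1 was at 6.44 ± 1.95 TPM and SMAD2 at 12 ± 0.751 TPM, whereas TGFBR2 and the ligand TGFB2 were at the floor and TGFB1 had 10, 2 and 9 counts. TGFBI, a matrix protein named for its induction by TGF-beta, was at 17.2, 0.799 and 1.60 TPM, highest in clone 1. Of 39 Wnt genes 22 were detected (56.4%), led by the secreted inhibitor DKK1 at 90.02, 33.6 and 216 TPM. Of 14 Hedgehog genes 4 were detected, and the ligand SHH and the target GLI1 were at the floor. Of 20 Hippo genes 18 were detected, with the co-activators YAP1 at 7.73 ± 1.71 TPM and WWTR1 at 27.3, 70.6 and 48 TPM.

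Of 21 Notch genes 11 were detected (52.4%, against 40.1% of all symbols). JAG1, a Notch ligand, was at 17.1, 0.0668 and 28.9 TPM, so that clone 2 all but lacked it with 10 counts against 2893 and 3054. HES1, a Notch target, was highest in that same clone, at 3.59, 18.7 and 9.90 TPM.

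Cell-cycle genes were abundant, with 32 of 38 detected (84.2%, against 40.1% of all symbols). CCNB1, the mitotic cyclin, was at 917, 848 and 955 TPM and TOP2A at 173, 159 and 208 TPM, and these ranges were narrow. CDK4, a G1 kinase, was at 141, 103 and 170 TPM. CDK6, the other G1 kinase, is not in the deposited TPM table and was at 0.890, 0.592 and 55.2 CPM, so that only clone 3 had more than 1 CPM. CDKN1A, an inhibitor of cyclin kinases, was below detection with 11, 32 and 25 counts. Glycolysis was represented by 23 of 31 genes, with GAPDH at 4575 ± 574 TPM and LDHA at 1636, 2437 and 2691 TPM. LDHB, the other main lactate dehydrogenase chain, had 0, 1 and 0 counts, and CA9, a hypoxia-induced carbonic anhydrase, had none.

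Of 15 genes of gemcitabine uptake and action, gemcitabine being a nucleoside drug used in this cancer, 12 were detected and none was at the floor. The nucleoside transporter SLC29A1 was at 16.3 ± 2.97 TPM, the activating kinase DCK at 12.7 ± 0.675 TPM, and the ribonucleotide reductase subunit RRM2 at 242 ± 22.4 TPM (SD, n = 3). The deaminase CDA was below detection in clone 1, at 0.521 CPM, and at 1.07 and 1.87 CPM in the others. Of 18 stem cell markers 6 were detected, and ALDH1A1, a retinal dehydrogenase, was the highest at 1852, 1949 and 1283 TPM. PROM1 and SOX2, among the 7 at the floor, had 1 count in all.

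In antigen presentation 12 of 23 genes were detected (52.2%, against 40.1% of all symbols). B2M, the shared chain of class I molecules, was at 2424, 3221 and 3343 TPM, whereas HLA-B and HLA-C were at 31.0 ± 21.8 and 11.4 ± 5.67 TPM. PSMB9, an immunoproteasome subunit, was at 31.8, 1.76 and 9.47 TPM, lowest in clone 2. Of 30 interferon-response genes 17 were detected (56.7%). ISG15, a ubiquitin-like protein induced by interferon, was at 129, 5.05 and 6.30 TPM and IFIT1 at 44.5, 7.83 and 15.3 TPM, both highest in clone 1. IFITM1 and IFITM3, membrane proteins of the same response, were instead lowest in clone 1, with 408, 867 and 1243 TPM for IFITM1 and 521, 894 and 1534 TPM for IFITM3. Of 28 stress and immediate early genes 24 were detected and none was at the floor. FOS, an immediate early factor, was at 9.11, 36.7 and 18.8 TPM, and DDIT3, which is induced by unfolded proteins, at 31.4, 48.4 and 83.5 TPM.

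The spread between the clones was then measured over 8416 genes with a mean of at least 5 CPM. For each gene the highest CPM was divided by the lowest after 0.5 was added to each, a step that understates the ratio of genes near 0 in 1 clone. The median ratio was 1.42, the 90th percentile 2.21 and the 99th percentile 11.1. A ratio of 4 or more was found in 246 genes (2.92%). Across genes, which are not independent replicates, log2 CPM correlated at r = 0.928 between clones 1 and 2, 0.932 between 1 and 3 and 0.951 between 2 and 3. The biological coefficient of variation, the spread beyond counting noise, was 0.321 over 12624 genes.

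Clone 1 differed most often from the others. At least a 3-fold distance from both other clones was found for 222 genes, of which 17 were above in 1 clone and below in another and are counted in both. There were 29 genes above (0.345%) and 87 genes below (1.03%) in clone 1. In clone 2 it was 43 genes above (0.511%) and 23 below (0.273%), and in clone 3 it was 41 above (0.487%) and 16 below (0.19%). Many of these genes were near 0 in 1 clone and well expressed in another.

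**Figure D3:**
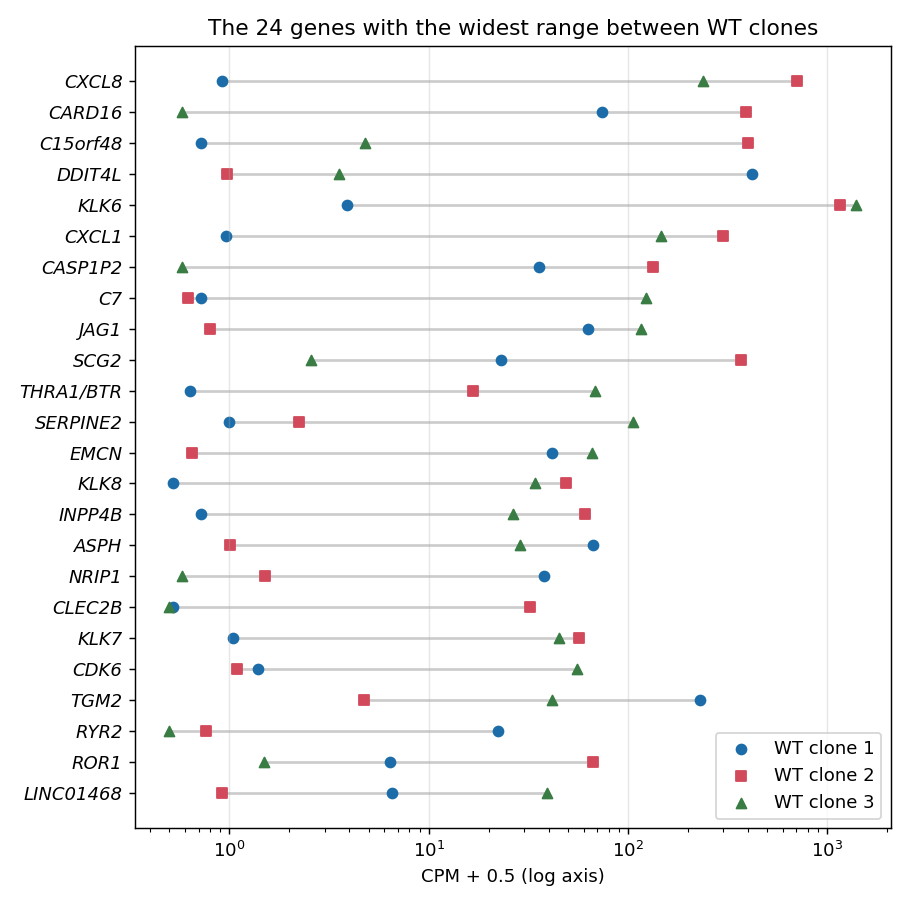
CPM plus 0.5, on a log axis, in each WT clone for the 24 genes of widest range, with a line from the lowest to the highest clone. CXCL8, KLK6 and CXCL1 are low in clone 1 alone, CARD16 and CASP1P2 are low in clone 3 alone, and DDIT4L is high in clone 1 alone.

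The widest range was that of CXCL8, the neutrophil-attracting chemokine interleukin-8, at 0.412, 707 and 237 CPM. CXCL1, a chemokine of the same receptor family, was at 0.456, 299 and 147 CPM. Both were low in clone 1 and high in the others. CXCL5 was at 4.15, 66.1 and 14.2 CPM, and CXCL2 was at 7.21, 47.8 and 7.20 CPM, so that clone 2 was the highest for all 4 chemokines while clones 1 and 3 were alike for CXCL2. These genes lie side by side on chromosome 4 among the expressed genes. C15orf48, on chromosome 15, had a similar order, with 0.217, 398 and 4.27 CPM. The receptors IL1R1 (11.2, 62.0 and 35.1 CPM) and IL1R2 (0.499, 16.5 and 16.4 CPM), which bind interleukin-1, were also lowest in clone 1.

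The promoters of the 4 chemokine genes are shown because they share a kB motif, the sequence class bound by NF-kB factors. The 150 bases before the start of each gene are given 5′ to 3′ on the gene's strand, from RefSeq on GRCh38.p14, with the motif in capitals. The deposited counts rest on an older build, so these positions are not those of the files.
CXCL8, chr4:73740419-73740568, plus strand: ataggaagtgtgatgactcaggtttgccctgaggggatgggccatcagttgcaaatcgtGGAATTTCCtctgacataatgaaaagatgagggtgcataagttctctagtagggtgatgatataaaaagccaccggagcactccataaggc
CXCL1, chr4:73869243-73869392, plus strand: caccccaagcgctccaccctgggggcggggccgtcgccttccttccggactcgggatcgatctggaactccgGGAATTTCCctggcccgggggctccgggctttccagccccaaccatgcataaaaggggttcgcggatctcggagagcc
CXCL5, chr4:73998678-73998827, minus strand: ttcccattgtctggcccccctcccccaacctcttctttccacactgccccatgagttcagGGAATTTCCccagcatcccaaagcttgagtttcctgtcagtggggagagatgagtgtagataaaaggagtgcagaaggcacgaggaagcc
CXCL2, chr4:74099196-74099345, minus strand: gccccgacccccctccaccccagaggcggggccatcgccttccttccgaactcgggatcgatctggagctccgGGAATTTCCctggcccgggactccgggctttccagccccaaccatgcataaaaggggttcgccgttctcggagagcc

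The motif searched was GGAATTTCC, read on either strand as GGAATTTCC or GGAAATTCC, in the 250 bases before and 50 bases after each start. It begins 91, 78, 90 and 77 bases before the start in CXCL8, CXCL1, CXCL5 and CXCL2. It was present in 0.426% of 16181 promoters matched to symbols of the files, and in 28 of 6549 promoters (0.428%) of genes with a mean of at least 5 CPM. Among promoters of the genes that varied at least 4-fold it was present in 6 of 171 (3.51%). Those 6 are the 4 chemokines, TNFRSF9, which encodes a receptor of the TNF family, and DUSP6. The 4 chemokines are neighbours on chromosome 4 that were shown because they vary and share the motif. The share among varying genes is therefore no test of the motif. TNFRSF9 had another order between clones, at 14.7, 1.72 and 2.1 CPM. A match describes the letters of this window and does not show that a factor binds there. For the E-box CACCTG, read on both strands, the share was 20.0% of all promoters, 8 of 19 (42.1%) among epithelial junction genes and 2 of 26 (7.69%) among mesenchymal and matrix genes. CDH1 and EPCAM had no promoter sequence here and are not among the 19. Of the junction genes at the floor that had one, CLDN3 held the E-box, and CLDN7 and PKP1 did not. The lists were chosen with earlier results of these data known, so these shares are no test of the E-box.

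A second group of neighbours low in clone 1 was the kallikreins, secreted serine proteases of chromosome 19. KLK6 was at 3.39, 1161 and 1399 CPM and KLK7 at 0.543, 56.3 and 44.6 CPM. KLK5 was at 0.326, 18.0 and 21.5 CPM, and KLK8 had a single count in clone 1 against 48.6 and 33.7 CPM in the others. Clones 2 and 3 differed by less than 2-fold for each of these 4 genes.

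HOXB genes, which encode homeodomain factors of body-axis identity, were likewise lowest in clone 1. HOXB2 was at 11.2, 43.0 and 62.3 CPM, HOXB7 at 5.04, 22.5 and 36.3 CPM, HOXB5 at 1.26, 11.7 and 12.2 CPM and HOXB3 at 2.17, 8.79 and 11.6 CPM. Of 6 HOX genes with a mean of at least 5 CPM, 4 varied at least 4-fold, against 2.92% of all such genes. Neighbouring genes may overlap here, and the reads were counted without strand.

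A group of inflammatory caspase genes on chromosome 11 was lowest in clone 3. CARD16, which encodes a caspase-1 inhibitor, was at 73.2, 393 and 0.0762 CPM, the latter resting on 2 counts. CASP4, the caspase that senses bacterial lipopolysaccharide, was at 124, 162 and 6.52 CPM, and the pseudogene CASP1P2 was at 35.1, 133 and 0.0762 CPM. CASP1, below the level used for the ranking, had 144, 349 and 0 counts. CARD16 and CASP1P2 are near-identical in part to CASP1, so the division of reads between them is uncertain.

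The same clone stood out for histone genes, which encode the core and linker proteins of chromatin. HIST1H2BK was at 189, 196 and 1623 CPM and HIST1H1C at 54.0, 68.1 and 796 CPM. HIST1H2AC (22.9, 26.2 and 224 CPM) and HIST1H4H (3.13, 4.65 and 57.8 CPM) showed the same order. Of 86 histone genes 42 were detected and 24 were at the floor, against 40.1% and 39.5% of all symbols. Some of those at the floor, such as H3F3A, HIST2H4A and HIST2H4B, have near-identical copies, so their low counts are uncertain. Of 27 histone genes with a mean of at least 5 CPM, 11 varied at least 4-fold, against 2.92% of all such genes. In clone 3, 12 of the 27 were at least 3-fold higher than in both others, against 0.487% of all such genes. The median shift of the 27 in clone 3 against the mean of the other clones was 1.60 on the log2 scale. HIST2H2BE, which lies on chromosome 1, was in that group as well, at 5.38, 12.2 and 54.6 CPM. H2AFZ, the variant histone H2A.Z whose gene lies outside these clusters, was similar in all clones, at 2797, 2917 and 3498 CPM. Many histone mRNAs end without a poly(A) tail, and the libraries were primed with oligo(dT). Cell-cycle genes were measured beside them: 27 of 33 were higher in clone 3 than the mean of the other clones, with a median log2 shift of 0.26. Their part in the histone difference was not tested.

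**Figure D4:**
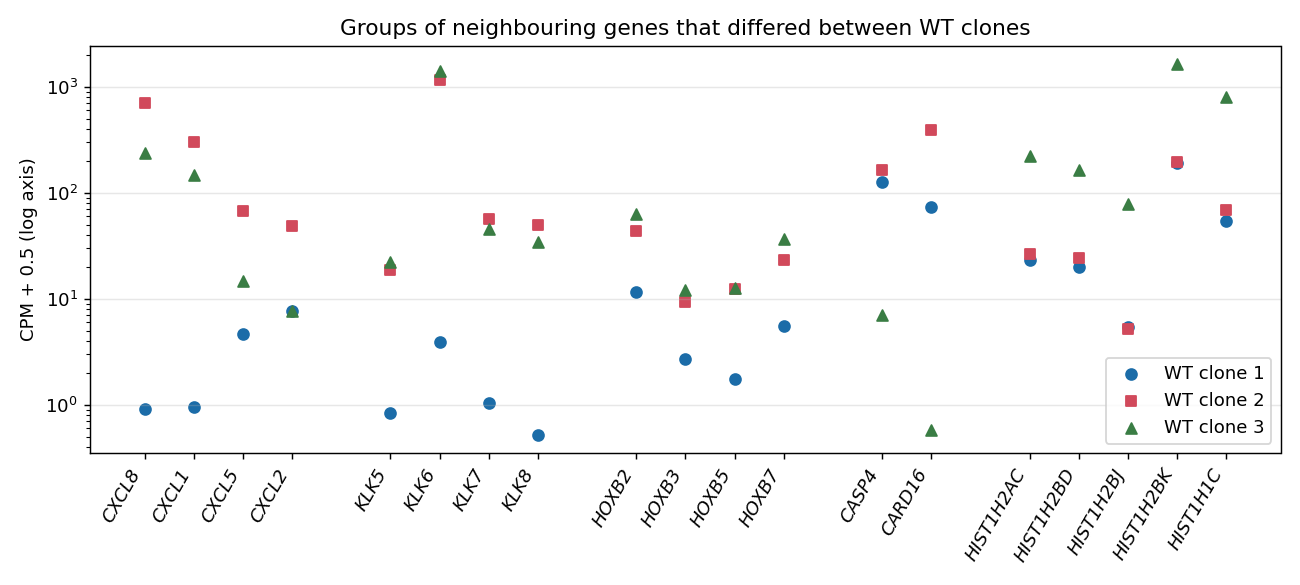
CPM plus 0.5, on a log axis, in each WT clone for 5 groups of neighbouring or related genes. The chemokines, kallikreins and HOXB genes have their lowest or near-lowest point in clone 1, CASP4 and CARD16 have theirs in clone 3, and the histone genes have their highest point in clone 3.

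Single genes set 1 clone apart as well. In clone 1 the highest was DDIT4L, a relative of the mTOR inhibitor DDIT4, at 421, 0.474 and 3.05 CPM. NRIP1, a corepressor of nuclear receptors, followed at 37.2, 1.01 and 0.0762 CPM, and TGM2, a protein cross-linking enzyme, was at 229, 4.26 and 41.1 CPM. In clone 2 the secretory-granule gene SCG2 was at 22.6, 369 and 2.06 CPM, and the lectin gene CLEC2B was at 31.9 CPM against 1 count in clone 1 and none in clone 3. JAG1, EMCN (40.9, 0.148 and 65.5 CPM) and ASPH (66.5, 0.503 and 28.2 CPM) were low in clone 2 alone. EMCN encodes endomucin, a sialomucin of endothelium, and ASPH an aspartyl hydroxylase. In clone 3 the complement gene C7 was at 0.217, 0.118 and 122 CPM, and SERPINE2, an inhibitor of serine proteases, was at 0.499, 1.75 and 106 CPM. SYT1, of synaptic vesicles, was at 0.695, 2.01 and 50.1 CPM in the same clone.

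Of 451 distinct list members with a mean of at least 5 CPM, 46 (10.2%) varied at least 4-fold, against 2.92% of all such genes. Lists and members were chosen with earlier results of these data known, so these shares describe the chosen genes and test nothing. This holds for the HOX and histone lists as well. The lists differed in the share that varied. None of the cytosolic ribosomal proteins varied, and of 33 cell-cycle genes CDK6 alone did. Of 8 integrin chains 2 did, and of 12 receptor kinases 3 did. Of 23 mesenchymal and matrix genes with a mean of at least 5 CPM, 4 did (TAGLN, TGFBI, AXL and NT5E). TAGLN, an actin-binding protein, was highest in clone 1, at 18.5, 3.43 and 5.37 CPM, and NT5E, the ecto-nucleotidase CD73, was lowest there, at 59.1, 181 and 353 CPM. FTH1, the ferritin heavy chain, was also lowest in clone 1, at 945, 3577 and 5161 CPM, although FTL was within 11282 to 15549 CPM. The integrin chains ITGA6 (9.96, 65.5 and 45.5 CPM) and ITGB4 (3.21, 14.5 and 2.25 CPM), which pair as a laminin receptor, were both highest in clone 2.

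Some varying genes lay next to each other on the chromosomes. Genes with a mean of at least 5 CPM were ordered along RefSeq GRCh38.p14, which placed 8341 of them. Of 243 varying genes placed, 68 (27.98%) had another varying gene as a direct neighbour in that order, while 396 of 8098 placed genes that did not vary (4.89%) had one. They formed 29 stretches, the longest holding 5 genes: THRA1/BTR, HOXB2, HOXB3, HOXB-AS3 and HOXB5. NUDT11, GSPT2 and MAGED1 on the X chromosome formed another, with MAGED1 at 11.5, 64.9 and 12.6 CPM and all 3 genes highest in clone 2. Neighbours did not have to differ in the same clone or direction. DDIT4L, high in clone 1, lay next to EMCN, low in clone 2. RAB38, high in clone 3, lay next to CTSC, low in clone 2. Other stretches, such as ROR1 with ROR1-AS1, join a gene and its antisense gene, and reads were counted without strand.

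On some chromosomes, and in long runs of genes, the median level also differed between the clones by small amounts. For each gene the log2 CPM of 1 clone minus the mean of the others was taken, and its median was given per chromosome. In clone 1 the median was -0.54 on chromosome 6, where 48 of 442 genes lay above 0, 0.44 on chromosome 10 (296 of 347 above 0) and 0.64 on chromosome 21 (85 of 96 above 0). In clone 2 it was 0.29 on chromosome 1, or 0.14 when libraries were scaled by their size alone, and -0.40 on chromosome 21. In clone 3 it was 0.36 on chromosome 11 (391 of 446 above 0), 0.31 on chromosome 6, 0.28 on chromosome 16 (257 of 350 above 0) and -0.27 on chromosome 1. The medians of 1 chromosome are not independent, since each clone is set against the others. Over all genes these medians were -0.04, 0.02 and 0.03 in clones 1, 2 and 3.

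In 156 runs of 50 neighbouring genes, a median shift of at least 0.4 on the log2 scale was found 41 times over the 3 clones. Clone 1 had 7 runs above and 12 below, clone 2 had 7 above and 0 below, and clone 3 had 7 above and 8 below. A chromosome median can mix unlike runs. On chromosome 16 in clone 3, medians were -0.07, 0.01 and 0.09 for the runs from POLR3K to ZNF689. They were 0.34 to 0.44 for the runs from PRR14 to AFG3L1P. On chromosome 1 in clone 1, the run from LINC01128 to PGD was at 0.43 and that from KIRREL to KIFAP3 at -0.39. In clone 3 these same runs were at -0.55 and -0.06. The largest shift was on the X chromosome, where the run from ATP6AP2 to GNL3L lay 0.93 higher in clone 2, with 47 of 50 genes above 0. The run that holds NUDT11, GSPT2 and MAGED1 is this one. On chromosome 6 the run from TPMT to HCG18 was lower in clone 1, by a median of -0.75, and higher in clone 3, by 0.51. That run holds 15 histone genes, and its 35 other genes had medians of -0.67 in clone 1 and 0.43 in clone 3, against 1.60 for the histone genes with a mean of at least 5 CPM in clone 3. No measurement of DNA copy number was used here.

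**Figure D5:**
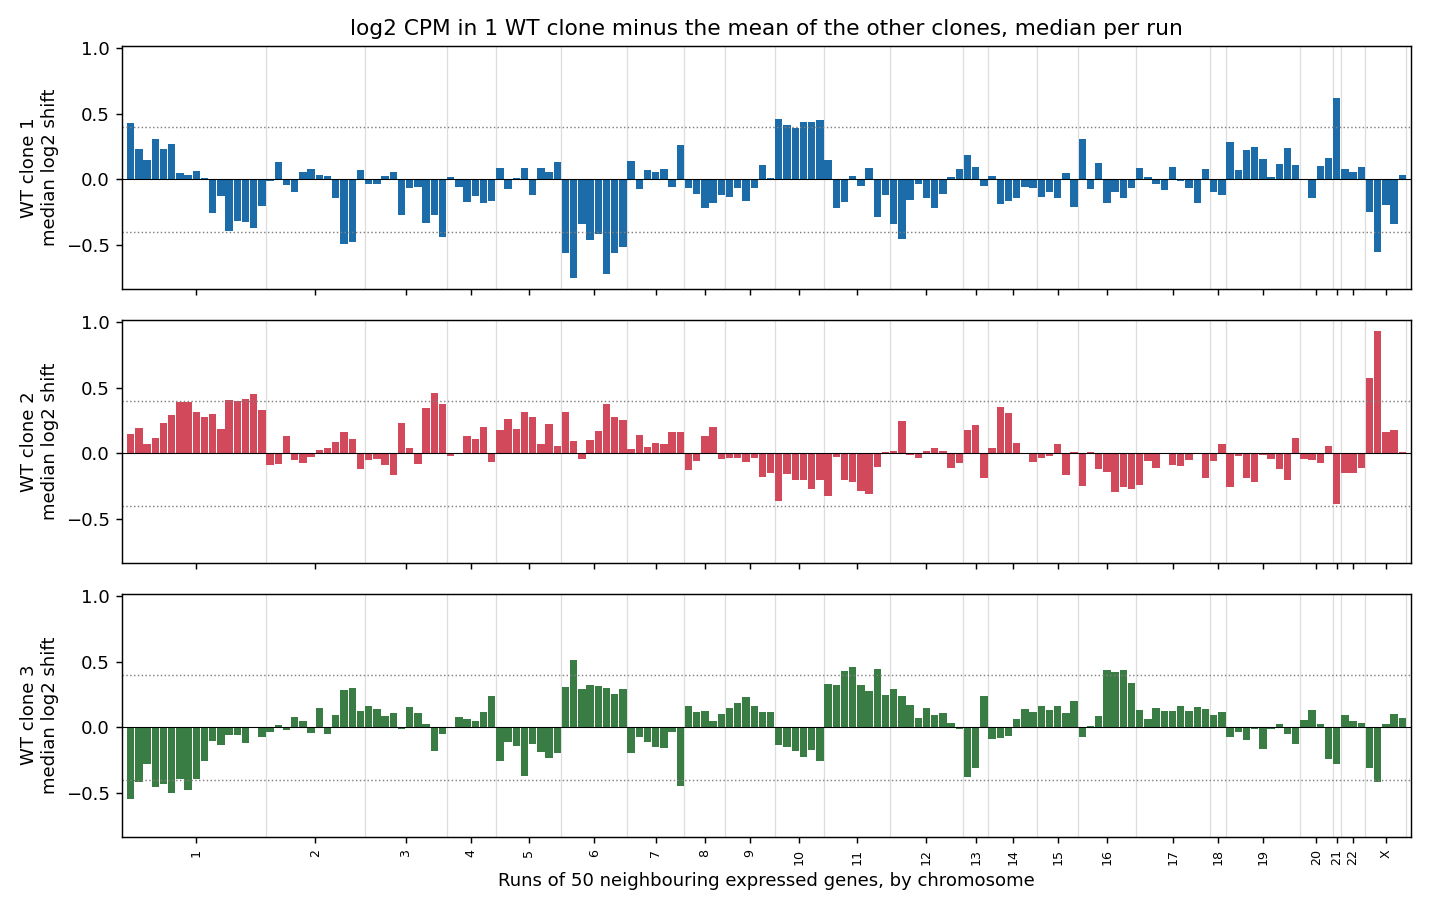
Median log2 CPM in 1 WT clone minus the mean of the other clones, for runs of 50 neighbouring expressed genes in chromosome order, with dotted lines at 0.4 and -0.4. Nearly the whole of chromosome 6 lies below 0 and chromosome 10 above 0 in clone 1, and the second run of X in clone 2 reaches 0.93.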

How the data were processed

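The authors deposited read counts per gene symbol and a table of TPM for 11013 of the symbols, which held 99.3% of the counts. Per the submitters' processing notes the tools were edgeR 3.2.2, HTSeq 0.6.1 and TopHat2 2.1.0, with hg19 and GRCh37. The sources used here do not give their settings, the gene lengths or the filter behind the TPM table. Here the deposited counts of the 3 WT libraries alone were scaled with TMM in edgeR 4.0.16 (R 4.3.3). The coefficient of variation came from estimateDisp after filterByExpr (minimum count 10, total 15). Counting rules were tested on simulated data. The library pairs differed far beyond sampling noise, so none was a copy. Genes were placed by symbol with RefSeq GRCh38.p14 (99.1% of genes with a mean of at least 5 CPM), and 61.4% of symbols had a promoter sequence. Named genes were the 4 markers, the 25 of highest mean TPM, the 24 of widest range, fixed driver and lineage genes, and from each of 41 lists the highest members, members at the floor and members varying at least 4-fold; other list members and neighbours (such as CASP1, KLK5, IL1R1 and FTH1) were named after their values were seen. The members and lists were chosen with earlier results of these data known. The list of mitochondrially encoded genes matched no symbol of the files. Results for a few genes are not reported here.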

Additional observations from a re-analysis of the deposited data

How the results depend on the processing

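No paired analysis was possible because only the WT clones were used and no result comes from a test. Under DESeq2 size factors, upper quartile factors and library size alone, 241 to 245 genes varied at least 4-fold, against 246 with TMM, and 224 to 244 of them were shared with it; library size alone moved the median of all genes by 0.15 in clone 1 and -0.15 in clone 2. The count of varying genes was 412 at a mean of at least 1 CPM and 427 with no filter, and 107 to 168 when 1 clone was left out, the lowest without clone 1. Genes set apart in at least 1 clone numbered 222, 359 at a mean of at least 1 CPM and 144 on the deposited TPM. The coefficient of variation was 0.321, 0.377 with no filter on low counts, 0.192 as the median gene-wise value of DESeq2, and 0.280 to 0.340 when 1 clone was left out. The leading 50 genes held 33.3% of TPM and 21.9% of TMM CPM, which is not per length. Runs shifted by at least 0.4 numbered 41, and 19 to 26 when 1 clone was left out (19 without clone 1, 26 without clone 2, 24 without clone 3), where fewer clones are compared. Detected genes ranged from 7728 at 5 CPM to 11672 at 0.5 CPM, and list members detected from 399 to 576 around 525. After subtraction of the run medians, a step chosen after seeing the data together with the alternatives for lists and runs, 224 placed genes varied, against 243 before, and 210 were in both sets. Among the ratios of the 24 widest-ranging genes, 72 values under other scalings moved by less than the spread between clones. These genes were picked for a wide spread, which rescaling could hardly exceed, so this is no check of them. With 1 clone left out, 24 of 72 values moved by more, each where the clone left out was the highest or the lowest. Leaving out such a clone narrows the ratio by construction. Clone 3 was the shallowest library, so its limit for a gene without a count is the highest.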
